A study of Mus musculus with 23 samples.

Results

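The glycolysis genes described here are the glucose transporter gene Slc2a1 and the genes of 9 enzymes of the pathway, Hk2, Pfkl, Aldoa, Tpi1, Gapdh, Pgk1, Eno1, Pkm and Ldha. They are the 10 of the 56748 genes of the count table that carry these symbols, and where a symbol occurred more than once the entry with most counts was taken. All 10 passed the filter on low counts. The table holds 23 B16-F1 mouse melanomas, grown under the skin of the right flank of DBA/2J mice aged 6 to 8 weeks and profiled as bulk tumor RNA. B16-F1 derives from C57BL/6 mice, so host and graft differ in strain. Norcantharidin (NCTD, 3 mg/kg), pentoxifylline (PTX, 60 mg/kg) or both (MIX) were given into the peritoneum (IP), dissolved in saline, or into the tumor (IT), dissolved in dimethyl sulfoxide. CONTROL_IP mice received saline and CONTROL_IT mice dimethyl sulfoxide. The 4 IP groups held 2 tumors each. CONTROL_IT, NCTD_IT and MIX_IT held 4 tumors each and PTX_IT held 3. Each route carries a batch of its own in the labels, so route, batch and vehicle cannot be told apart.

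Glycolysis converts glucose to pyruvate, and lactate dehydrogenase then reduces pyruvate to lactate. Many tumors, melanomas among them, run it at a high rate even where oxygen is present. The hypoxia-inducible factor HIF-1 and Myc are known activators of the genes of this pathway, and several of them serve as reference genes for expression measurements.

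Total counts ranged from 2861578 to 6702374 per tumor, and the 10 genes together took 0.444% to 1.25% of them. Levels are given as CPM (counts scaled to a common library total) normalized by TMM, which corrects for the composition of each library, and 3 counts correspond to 0.448 to 1.05 CPM. The melanoma markers Pmel, Mlana, Tyr, Dct, Tyrp1 and Sox10 were all detected and summed to between 14979 and 36699 CPM. MIX_IT replicate 23 stood apart: it was the lowest of the 23 tumors for 9 of the 10 genes, and its fibroblast markers (Col1a1, Dcn, Pdgfra) summed to 4846 CPM against at most 1043 in any NCTD_IT tumor. The MIX_IT counts below are therefore also given without it. Xist, expressed from the inactive X of females, was at 1.28 to 13.6 CPM in the PTX_IT and NCTD_IT tumors and at no more than 0.57 in CONTROL_IT and MIX_IT, while the Y-linked Ddx3y was at 1.03 to 15.5 CPM in CONTROL_IT and MIX_IT and at no more than 0.29 in PTX_IT and NCTD_IT. The labels give no sex. The paper describes its treatment groups as matched for sex, whereas these markers differ between the IT groups. For NCTD_IT and PTX_IT against CONTROL_IT, drug and the sex these markers give cannot be told apart. The same limit enters the NCTD and PTX changes set against the IP route, and the average of IT against IP tumors. Among the IP tumors Xist was detected in CONTROL_IP replicate 2 alone (8.26 CPM, with Ddx3y at 0.451), which was also the lower CONTROL_IP tumor for Gapdh. Its part in the IP comparisons was not tested other than by leaving it out.

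In GRCm39, Pgk1 lies on the X chromosome and the others on autosomes. Gapdh (ENSMUSG00000057666) spans 125138678 to 125143430 on the minus strand of chromosome 6, and Hk2 (ENSMUSG00000000628) spans 82702006 to 82751435 on the same strand of that chromosome. Because HIF-1 binds a short core, ACGTG or GCGTG, the RefSeq promoters (build GRCm38.p6, 250 bases before to 50 after the annotated start) were searched for it on both strands. Overlapping matches were merged, so that CACGTG, which reads the same on both strands, counts once. The core occurred in 43.8% of all 32851 promoters and in 13 of the 16 promoters of the 10 genes (81.2%). Promoters of nearby starts of a gene overlap, as in Aldoa and Eno1, so the same match can count more than once. Counted by gene, the core occurred in 9 of the 10, against 46.7% of 27025 genes. At least 2 matches occurred in 17.3% of all promoters and in 62.5% of those of the 10 genes. Tpi1 was the 1 gene of the 10 with no match at any of its starts. These 5 promoters are shown because they span this range, with Ldha at 5 matches, Gapdh at 3, Pgk1 and Hk2 at 2 and Tpi1 at 0. They are printed 5′ to 3′ on the strand of the gene, and capitals mark the matches.
Ldha, chr7:46845554-46845853, plus strand: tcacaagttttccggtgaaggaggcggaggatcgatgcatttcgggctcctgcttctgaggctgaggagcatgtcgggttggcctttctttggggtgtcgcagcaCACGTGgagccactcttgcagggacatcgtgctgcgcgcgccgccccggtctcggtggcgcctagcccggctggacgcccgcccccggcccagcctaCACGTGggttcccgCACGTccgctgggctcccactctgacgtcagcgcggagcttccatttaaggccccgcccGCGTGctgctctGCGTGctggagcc
Gapdh, chr6:125165724-125166023, minus strand: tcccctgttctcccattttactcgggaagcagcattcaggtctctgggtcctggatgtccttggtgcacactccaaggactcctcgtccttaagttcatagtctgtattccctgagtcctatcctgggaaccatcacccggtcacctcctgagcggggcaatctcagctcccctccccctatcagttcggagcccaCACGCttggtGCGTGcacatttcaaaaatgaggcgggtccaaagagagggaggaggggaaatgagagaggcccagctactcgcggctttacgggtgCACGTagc
Pgk1, chrX:106186850-106187149, plus strand: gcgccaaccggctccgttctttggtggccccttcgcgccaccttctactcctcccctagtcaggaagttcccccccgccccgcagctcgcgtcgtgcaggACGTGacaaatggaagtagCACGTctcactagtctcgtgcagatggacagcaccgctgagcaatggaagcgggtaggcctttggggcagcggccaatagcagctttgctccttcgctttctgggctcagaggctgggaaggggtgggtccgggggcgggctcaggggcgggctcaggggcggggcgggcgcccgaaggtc
Hk2, chr6:82774405-82774704, minus strand: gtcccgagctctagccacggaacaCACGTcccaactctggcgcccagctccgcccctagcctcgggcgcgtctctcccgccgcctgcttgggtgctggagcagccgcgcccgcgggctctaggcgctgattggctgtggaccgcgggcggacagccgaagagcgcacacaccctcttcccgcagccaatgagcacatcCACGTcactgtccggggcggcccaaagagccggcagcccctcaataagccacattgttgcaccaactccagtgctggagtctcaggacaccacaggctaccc
Tpi1, chr6:124814109-124814408, minus strand: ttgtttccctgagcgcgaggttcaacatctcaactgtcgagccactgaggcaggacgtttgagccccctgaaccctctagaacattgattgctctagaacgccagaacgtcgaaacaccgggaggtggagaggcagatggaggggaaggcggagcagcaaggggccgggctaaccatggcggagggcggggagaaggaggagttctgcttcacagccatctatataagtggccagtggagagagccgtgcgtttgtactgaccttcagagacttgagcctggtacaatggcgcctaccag
These matches are letters in a window and do not show binding in these tumors.

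Across the 8 groups, the mean level was highest in CONTROL_IT for 5 of the 10 genes (Pfkl, Tpi1, Pgk1, Pkm, Ldha) and lowest in NCTD_IT for 7 (Pfkl, Tpi1, Gapdh, Pgk1, Eno1, Pkm, Ldha). The ratio of the highest to the lowest group mean was largest for Gapdh, at 2.49, and Hk2, at 2.44. Gapdh encodes glyceraldehyde-3-phosphate dehydrogenase, which oxidizes the triose phosphate and yields NADH. Its mean was 149.5 ± 39.2 CPM (SD, n = 4) in NCTD_IT, 176 ± 44.1 (n = 2) in CONTROL_IP, 180.1 ± 116 (n = 4) in MIX_IT, 269.6 ± 60.9 (n = 3) in PTX_IT, 319 ± 1.70 (n = 2) in PTX_IP, 357 ± 34.4 (n = 4) in CONTROL_IT, 369 ± 26.6 (n = 2) in MIX_IP and 372 ± 74.5 (n = 2) in NCTD_IP. The step from PTX_IP to CONTROL_IT was the only neighboring pair whose difference, 37.8 CPM, was larger than the combined SD of the pair, 34.4, and even there the tumors overlapped.

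Hk2 encodes hexokinase 2, which phosphorylates glucose on entry. Its order ran from 247 ± 115 CPM (SD, n = 4) in MIX_IT through NCTD_IT (338 ± 43.0), CONTROL_IP (346 ± 58.3), NCTD_IP (374 ± 0.40), CONTROL_IT (374 ± 46.8), PTX_IT (384 ± 102) and PTX_IP (431 ± 70.2) to 602 ± 22.5 in MIX_IP. The 7 groups below MIX_IP could not be separated from their neighbors by more than their spread, whereas MIX_IP exceeded PTX_IP by 171 CPM against a combined SD of 73.7. Over all 10 genes and 7 neighboring steps each, 9 steps were larger than the combined SD.

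**Figure D1:**
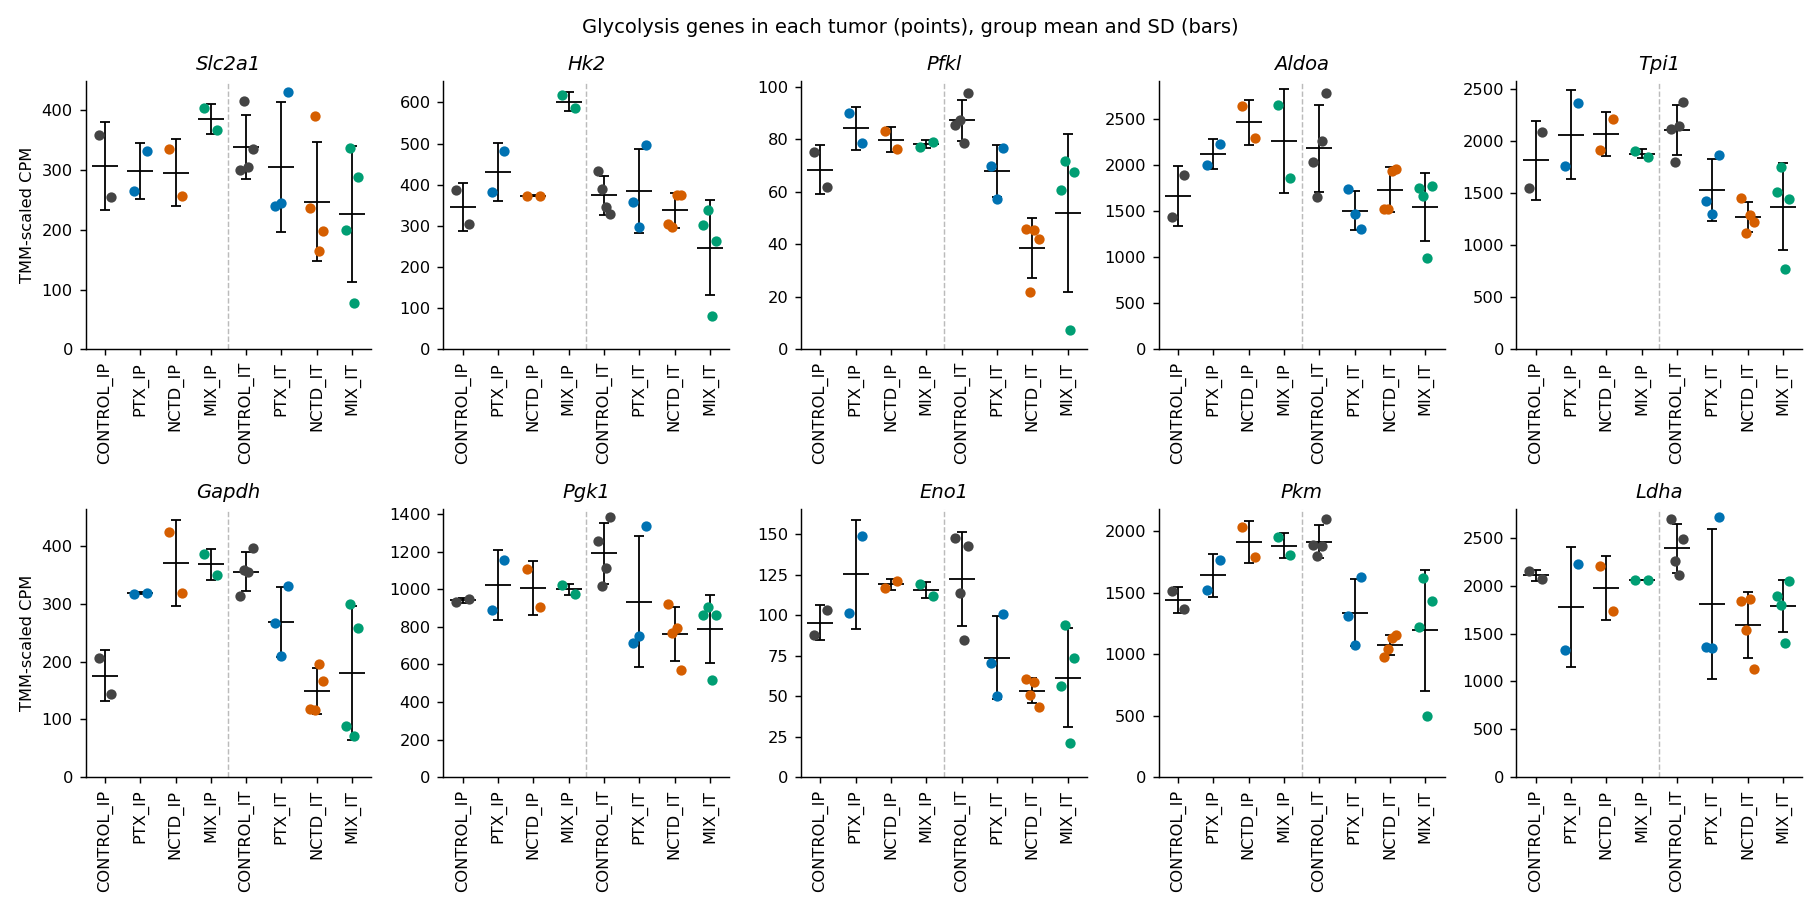
TMM-scaled CPM (y axis, linear, from 0) of each glycolysis gene in the 8 groups (x axis), with IP groups left and IT groups right of the dashed line. Points are tumors and bars are group means with SD. Gapdh in the 6 drug-treated IP tumors (318 to 425 CPM) lies above both CONTROL_IP tumors (144 and 207), whereas the 4 NCTD_IT tumors (117 to 196) lie below the CONTROL_IT tumors (314 to 398), and MIX_IT replicate 23 is the lowest point in 9 of the 10 panels.

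The IP comparisons ask whether each drug altered the pathway when given systemically. Gapdh was the gene that stood out in each of them. It read 207 and 144 CPM in the CONTROL_IP tumors, 425 and 319 in NCTD_IP, 318 and 319.9 in PTX_IP, and 388 and 350.1 in MIX_IP. Every treated tumor was above both controls, and the log2 fold change was 1.09 (SE 0.23) in NCTD_IP, 0.86 (SE 0.23) in PTX_IP and 1.08 (SE 0.23) in MIX_IP. The unadjusted p of edgeR's quasi-likelihood test was 0.000875, 0.00379 and 0.000897, and the Benjamini-Hochberg adjusted p was 0.999, 0.906 and 0.999. The 3 comparisons share the same 2 control tumors, and without CONTROL_IP replicate 2, the lower one, the NCTD_IP value was 0.85.

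Hk2 followed in MIX_IP. It read 387 and 305 CPM in CONTROL_IP and 618 and 586 in MIX_IP, which were the highest levels of Hk2 in any of the 23 tumors. The log2 fold change was 0.81 (SE 0.20, unadjusted p = 0.00245, adjusted p = 0.999 by edgeR). In PTX_IP the tumors read 382 and 481 CPM and overlapped the controls, with a log2 fold change of 0.32 (95% interval -0.12 to 0.76). In NCTD_IP both tumors lay within the range of the controls, at 373 and 374 CPM. Averaged over the presence of the other drug, the PTX effect on Hk2 was 0.51 (SE 0.14, unadjusted p = 0.00499).

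Of the later enzymes, Aldoa and Pkm had an unadjusted p below 0.05 in NCTD_IP, and Tpi1 (0.19), Pgk1 (0.10) and Eno1 (0.32) did not. Aldoa, the aldolase that cleaves fructose bisphosphate, read 1433 and 1889.8 CPM in CONTROL_IP and 2634 and 2285 in NCTD_IP, a log2 fold change of 0.57 (SE 0.23, unadjusted p = 0.0350 by edgeR). Pkm, the pyruvate kinase of the final step to pyruvate, read 1514 and 1365 CPM in CONTROL_IP and 2032 and 1790.3 in NCTD_IP, a log2 fold change of 0.41 (SE 0.18, unadjusted p = 0.0486). Neither pair of groups overlapped. Slc2a1 and Ldha, at the entry and the exit of the pathway, were at -0.05 and -0.09 in NCTD_IP and did not differ beyond their error.

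Over the 10 genes, 8 were higher in NCTD_IP than in CONTROL_IP, 8 in PTX_IP and 9 in MIX_IP, and the median log2 fold change was 0.21, 0.25 and 0.31 against -0.01, 0.01 and -0.01 over all 12424 genes tested. After adjustment, edgeR called 0 of the 10 genes and 0% of all genes tested in each of the 3. At an unadjusted p below 0.05, 3 of the 10 genes were higher in NCTD_IP (Gapdh, Aldoa, Pkm) against 1.92% of all genes, 1 in PTX_IP (Gapdh) against 3.00%, and 2 in MIX_IP (Gapdh, Hk2) against 1.39%. With DESeq2 on the 2 groups of each comparison alone, Gapdh passed at an adjusted p of 0.0107 in NCTD_IP and 0.00567 in MIX_IP. None of the 10 passed in PTX_IP. Over all genes DESeq2 called 8 of 3156 in NCTD_IP, 8 of 17700 in MIX_IP and 4 of 21535 in PTX_IP. Both treated tumors were above both controls for 5 of the 10 genes in NCTD_IP, 4 in PTX_IP and 7 in MIX_IP, against 16.3%, 15.7% and 17% of all genes. In MIX_IP 1 gene, Ldha, went the other way, at 2059 and 2064 CPM against 2152 and 2068 in CONTROL_IP. The share of all genes in that direction was not counted. The counts at an unadjusted p below 0.05 depended on single tumors (closing section). Over the tumors left out, NCTD_IP ran from 0.85 to 1.37 for Gapdh, 0.38 to 0.78 for Aldoa and 0.32 to 0.52 for Pkm. Gapdh in PTX_IP ran from 0.62 to 1.14. The PTX_IP direction rested on single tumors: without PTX_IP replicate 4 the median was 0.075, 6 of the 10 genes were higher and Ldha was lower at an unadjusted p below 0.05, and without PTX_IP replicate 3 the median was 0.33 and all 10 were higher.

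Averaged over the presence of PTX, the NCTD effect by the IP route was positive for all 10 genes, with a median of 0.14, and Gapdh (0.65, SE 0.16, unadjusted p = 0.00240) and Pkm (0.31, SE 0.13, unadjusted p = 0.0383) had an unadjusted p below 0.05, against 1.23% of all genes that were higher. The PTX effect averaged over NCTD was positive for 9 genes, with Hk2 and Gapdh (0.43, SE 0.16, unadjusted p = 0.0233) below that threshold, against 1.73% of all genes. With edgeR 0 of the 10 and 0% of all genes had an adjusted p below 0.05 in either, and with DESeq2 0 of the 10. The signs of the NCTD effect were not stable, with 6 of 10 genes positive without PTX_IP replicate 3, and its median was 0.28 without PTX_IP replicate 4 and 0.24 with annotated copies summed. The median of the PTX effect, 0.13, was 0.051 without PTX_IP replicate 4, with 7 genes positive, and 0.073 without NCTD_IP replicate 6. Both counts of 2 depended on single tumors (closing section). Over the tumors left out, the NCTD effect ran from 0.54 to 0.80 for Gapdh and from 0.27 to 0.38 for Pkm. The PTX effect ran from 0.41 to 0.60 for Hk2 and from 0.31 to 0.57 for Gapdh.

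The IT comparisons ask the same of drug placed in the tumor. In NCTD_IT all 10 genes were lower than in CONTROL_IT, by log2 fold changes from -0.15 for Hk2 to -1.26 for Gapdh. The median was -0.69 against 0.03 over all 12480 genes tested. Bulk RNA cannot tell fewer cells that express a gene from less RNA per cell.

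Gapdh read 314, 358, 356 and 398 CPM in CONTROL_IT and 117, 117, 196 and 167 in NCTD_IT, so that no treated tumor reached the lowest control. Its log2 fold change was -1.26 (SE 0.36, unadjusted p = 0.00307, adjusted p = 0.0695 by edgeR). Eno1, the enolase that forms phosphoenolpyruvate, read 148, 114, 84.9 and 143 CPM in CONTROL_IT and 60.5, 50.8, 58.8 and 43.5 in NCTD_IT. The groups did not overlap, and its log2 fold change was -1.19 (SE 0.34, unadjusted p = 0.00266, adjusted p = 0.0661). Pfkl, the liver-type subunit of phosphofructokinase, the committed step of the pathway, read 85.5, 87.2, 78.6 and 97.6 CPM in CONTROL_IT and 45.7, 21.7, 45.3 and 42.1 in NCTD_IT. Its log2 fold change was -1.17 (SE 0.43, unadjusted p = 0.0156, adjusted p = 0.137), again without overlap, and was -0.97 without NCTD_IT replicate 18, the tumor with the lowest value of that group.

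Pkm showed a tight shift. It read 1892, 1796, 1877 and 2104 CPM in CONTROL_IT and 979, 1041, 1129.5 and 1156 in NCTD_IT. The log2 fold change was -0.83 (SE 0.26, unadjusted p = 0.00511, adjusted p = 0.0842 by edgeR). Tpi1, which interconverts the triose phosphates, read 2114, 1799, 2148 and 2377 CPM in CONTROL_IT and 1457, 1122, 1289 and 1223 in NCTD_IT, a log2 fold change of -0.73 (SE 0.21, unadjusted p = 0.00339, adjusted p = 0.0716). Neither gene had a treated tumor within the range of the controls.

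Pgk1, the phosphoglycerate kinase that makes the first ATP of the payoff phase, read 1257, 1015, 1111 and 1385 CPM in CONTROL_IT and 921, 765, 791 and 572 in NCTD_IT, and the log2 fold change was -0.64 (SE 0.23). Ldha, the lactate dehydrogenase subunit that favors lactate formation, read 2699, 2260.2, 2114 and 2494 CPM in CONTROL_IT and 1841, 1543, 1862 and 1126 in NCTD_IT, and the log2 fold change was -0.58 (SE 0.23). Both were without overlap, with adjusted p of 0.126 and 0.158 by edgeR. The remaining genes overlapped the controls. Slc2a1, the GLUT1 transporter, was spread from 164 to 390.3 CPM in NCTD_IT around an estimate of -0.46 (95% interval -1.21 to 0.30). The values were -0.33 for Aldoa (-0.77 to 0.10) and -0.15 for Hk2 (-0.79 to 0.50), and the 4 NCTD_IT tumors read between 297 and 375 CPM for Hk2 against 328 to 433 in CONTROL_IT.

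With edgeR 0 of the 10 genes had an adjusted p below 0.05 in NCTD_IT, against 1.37% of all genes. At an unadjusted p below 0.05, 7 of the 10 were lower, against 10.0% of all genes. The same 7 genes were those whose 4 treated tumors all lay below the 4 controls, against 8.95% of all genes. The adjusted result depended on the tool and on the tumors in the fit, which for the edgeR values above were all 15 IT tumors. DESeq2, fitted to the 8 tumors of these 2 groups alone, gave all 7 an adjusted p below 0.05, from 9.03e-07 for Gapdh to 0.0291 for Ldha. Over all genes it called 1380 of 13016. With edgeR on the same 8 tumors, 5 of the 10 (Tpi1, Pkm, Gapdh, Eno1, Pfkl) and 946 of 11263 genes were called. Leaving out any of the 8 tumors kept the count at an unadjusted p below 0.05 at 6 or 7, with 900 to 1337 of all genes lower. The median stayed between -0.76 and -0.60.

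In PTX_IT, 9 of the 10 genes were lower than in CONTROL_IT, with a median log2 fold change of -0.40 against 0.02 over all genes. PTX_IT replicate 16 differed from the other two tumors of its group. For Gapdh, the PTX_IT tumors read 268, 209 and 331 CPM, of which replicate 16 was the highest and lay within the controls. For Ldha they read 1364, 1346 and 2722 CPM, and for Pgk1 711, 752 and 1336, so that the third tumor was at or above most controls while the others were below all of them. Aldoa was the gene with an unadjusted p below 0.05, at 1733, 1464 and 1309 CPM and a log2 fold change of -0.54 (SE 0.22, unadjusted p = 0.0270, adjusted p = 0.785 by edgeR).

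That 1 of 10 compares with 2.16% of all genes that were lower at this threshold, and 0 of the 10 and 0% of all genes passed after adjustment with edgeR, as did 0 of the 10 with DESeq2. Pfkl and Pkm had all 3 treated tumors below all controls, against 4.15% of all genes. The count of 1 became 5 without PTX_IT replicate 16, where 898 of 13039 genes were lower at this threshold. It was 2 without CONTROL_IT replicate 10, with 317 of 12402 genes lower. It was 0 without CONTROL_IT replicate 12 or PTX_IT replicate 15, with 150 of 12439 and 88 of 12943 genes lower. On these 2 groups alone it was 5 with DESeq2 and with edgeR, with 431 and 445 genes lower. The median was -0.62 without PTX_IT replicate 16, with all 10 genes lower, and -0.25 without PTX_IT replicate 15.

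In MIX_IT all 10 genes were lower than in CONTROL_IT, from -0.42 for Ldha to -0.99 for Eno1 and Gapdh, with a median of -0.62 against 0.01 over all genes. The 4 tumors were unlike one another. Gapdh read 89.5, 299.5, 72.1 and 259 CPM, so that replicates 21 and 23 were below every NCTD_IT tumor while replicates 22 and 24 were above every NCTD_IT tumor, and all 4 lay below the controls. Eno1 read 56.5, 93.8, 21.4 and 73.6 CPM, with replicate 22 inside the range of the controls. Pfkl read 60.8, 71.8, 7.28 and 67.5 CPM, below all controls. Hk2 read 303, 339.8, 80.1 and 265 CPM, with replicate 22 inside the range of the controls.

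At an unadjusted p below 0.05, 6 of the 10 genes were lower, against 5.11% of all genes: Eno1 (-0.99, SE 0.33, unadjusted p = 0.00859 by edgeR), Tpi1 (-0.63, SE 0.21, unadjusted p = 0.00901), Gapdh (-0.99, SE 0.36, unadjusted p = 0.0136), Pkm (-0.69, SE 0.26, unadjusted p = 0.0163), Pgk1 (-0.60, SE 0.23, unadjusted p = 0.0186) and Aldoa (-0.50, SE 0.20, unadjusted p = 0.0246). The smallest adjusted p was 0.222, and 0 of the 10 and 0% of all genes passed after adjustment with edgeR. With DESeq2 0 of the 10 and 228 of 10626 genes passed. In 6 of the 10 (Pfkl, Tpi1, Gapdh, Pgk1, Pkm, Ldha) the 4 treated tumors were all below the 4 controls, against 4.98% of all genes, and without replicate 23 the count was also 6, against 6.17%. Without MIX_IT replicate 23, 4 of the 10 were lower at an unadjusted p below 0.05, as were 422 of 12311 genes, and the median was -0.41. Hk2 moved from -0.60 to -0.31, Slc2a1 from -0.59 to -0.31 and Pfkl from -0.75 to -0.39. Gapdh and Eno1 were then at -0.73 and -0.71.

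**Figure D2:**
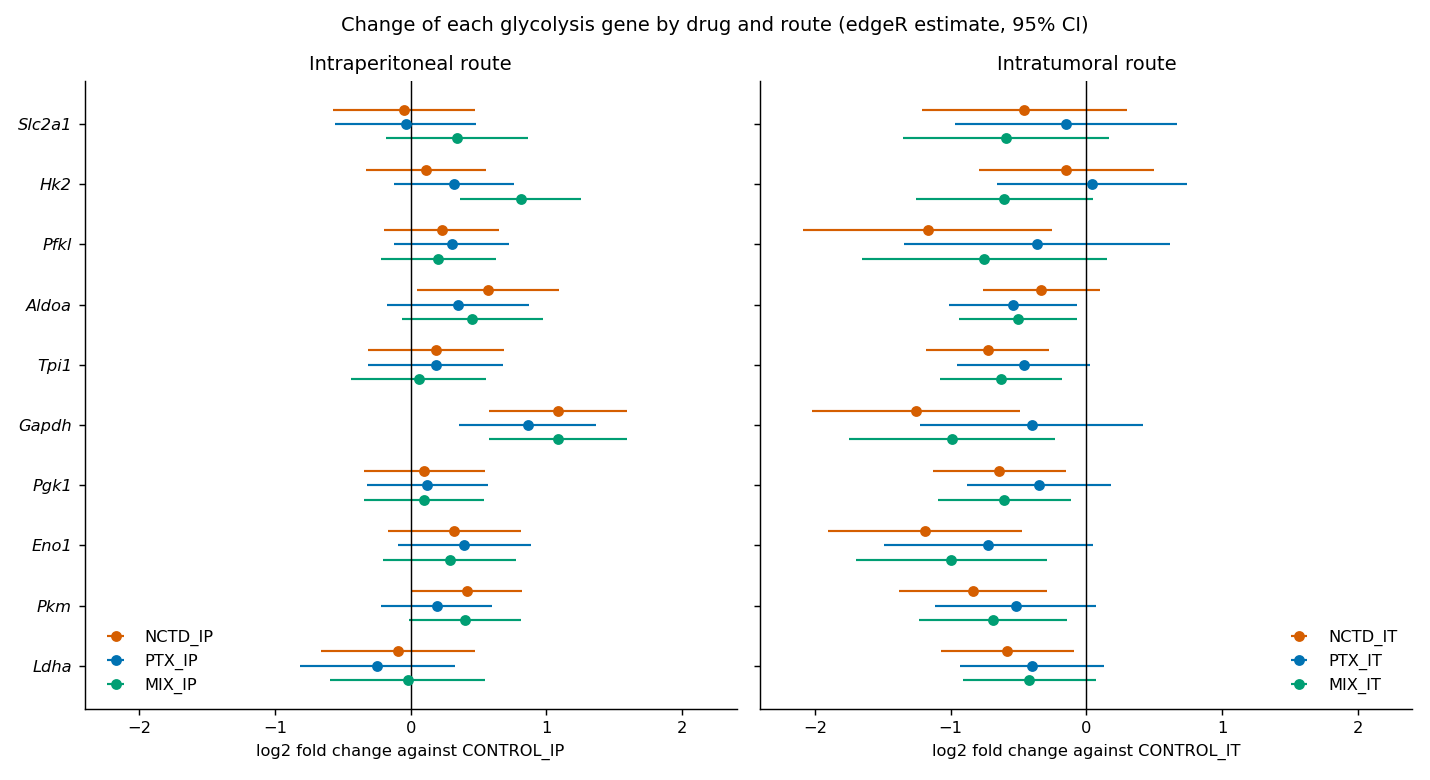
Log2 fold change against the control of the same route (x axis, linear) for each gene (y axis), with IP comparisons on the left and IT comparisons on the right. Points are edgeR estimates and bars their 95% confidence intervals. By the IP route Gapdh lies farthest to the right in all 3 comparisons (0.86 to 1.09) and by the IT route all NCTD_IT and MIX_IT points lie left of 0.

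The change by the IT route was then set against the change by the IP route in a model of all 23 tumors. For NCTD the difference was negative for all 10 genes, from -0.26 for Hk2 to -2.34 for Gapdh, with a median of -0.91 against 0.05 over all 13395 genes tested. An unadjusted p below 0.05 was reached by 6 genes, against 5.34% of all genes that were lower: Gapdh (-2.34, SE 0.57, unadjusted p = 0.000564 by edgeR), Pkm (-1.24, SE 0.40), Eno1 (-1.51, SE 0.53), Aldoa (-0.90, SE 0.34), Tpi1 (-0.91, SE 0.35) and Pfkl (-1.39, SE 0.66). With edgeR 0 of the 10 and 0% of all genes had an adjusted p below 0.05. With DESeq2 1 of the 10 did, Gapdh, at 0.0139, as did 78 of 5397 genes. The count of 6 depended on single tumors (closing section). Without CONTROL_IP replicate 1, Gapdh was at -2.64, Aldoa at -0.73 and Tpi1 at -0.73.

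For MIX the difference was also negative for all 10, with a median of -0.94 against 0.06 over all genes, and 5 genes had an unadjusted p below 0.05, against 2.69% of all genes: Gapdh (-2.05, SE 0.57, unadjusted p = 0.00174 by edgeR), Hk2 (-1.40, SE 0.48, unadjusted p = 0.00882), Aldoa (-0.94, SE 0.34), Pkm (-1.07, SE 0.40) and Eno1 (-1.27, SE 0.52). The smallest adjusted p was 0.584. The count stayed at 5 without MIX_IT replicate 23, where 372 of 13230 genes were lower at that p, with Gapdh at -1.82 and Hk2 at -1.13. It depended on other single tumors (closing section). Aldoa was at -0.67 without MIX_IP replicate 7. For PTX the median was -0.65 against 0.02, and 2 genes, Aldoa (-0.88, SE 0.35, unadjusted p = 0.0193) and Gapdh (-1.26, SE 0.58, unadjusted p = 0.0422), had an unadjusted p below 0.05, against 2.64% of all genes. That count was 5 without PTX_IT replicate 16, where 747 of 13383 genes were lower at that p. Of the other IT tumors left out, it was 1 without CONTROL_IT replicate 10 or 12, or PTX_IT replicate 13 or 15, with 222 to 420 genes lower. The count also depended on IP tumors, and its full range is in the closing section. Gapdh was at -1.02 without CONTROL_IP replicate 2, and Tpi1 was at -0.42 without PTX_IP replicate 4. For MIX and PTX, 0 of the 10 and 0% of all genes passed after adjustment with edgeR, as did 0 of the 10 with DESeq2. The controls enter every one of these differences, and the CONTROL_IT mean was above the CONTROL_IP mean for all 10 genes, as for Gapdh (357 against 176 CPM), Pkm (1917 against 1439.5), Aldoa (2180.5 against 1662) and Hk2 (374 against 346). The median for PTX was -0.51 without PTX_IP replicate 4, with 2 genes above 0.

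Averaged over the 4 groups of each route, all 10 genes were lower in IT than in IP tumors, with a median of -0.34 against 0.01 over all genes. Eno1 (-0.62, SE 0.18, unadjusted p = 0.00309 by edgeR), Tpi1 (-0.34, SE 0.12), Pkm (-0.34, SE 0.14), Aldoa (-0.29, SE 0.12) and Hk2 (-0.37, SE 0.17) had an unadjusted p below 0.05, against 6.08% of all genes that were lower. With edgeR 0 of the 10 passed after adjustment, against 0.739% of all genes. With DESeq2 1 did, Eno1, at 0.0288, as did 411 of 7649 genes. The limit that Eno1 carries through its copy, described below, applies here too. With annotated copies summed the count of 5 was 4, with 839 of 13394 genes lower at that p, and the median was -0.32. The count of 5 also depended on single tumors (closing section). Over the tumors left out, Eno1 ran from -0.69 to -0.55, Tpi1 from -0.40 to -0.29 and Aldoa from -0.35 to -0.22. Among control tumors the order was the opposite for all 10 genes, as given above.

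Eno1 carries a limit of its own. The mouse genome holds a retrotransposed copy, Eno1b, and it received 25498 counts against 9259 for Eno1, or 2.75 counts for each count of Eno1. Reads that match both cannot be placed with certainty, and how the counting treated such reads is not given in the sources used here. The ratio was 1.82 to 3.10 in CONTROL_IT, 3.26 to 4.66 in NCTD_IT, 2.80 to 5.05 in PTX_IT and 2.89 to 7.93 in MIX_IT, and no NCTD_IT tumor was within the range of the controls. Eno1b itself had a log2 fold change of -0.41 (SE 0.18, unadjusted p = 0.0370 by edgeR) in NCTD_IT against -1.19 for Eno1, and the summed counts gave -0.59. In MIX_IT the sum gave -0.49 in place of -0.99, and in PTX_IT -0.28 in place of -0.72. The annotated copies of Gapdh, Pgk1, Aldoa and Ldha held at most 0.278% of the counts of their gene. That share does not show how many shared reads these genes lost. If such reads were discarded in counting, gene and copies would both lack them. Whether this lowered the levels of these genes was not tested.

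**Figure D3:**
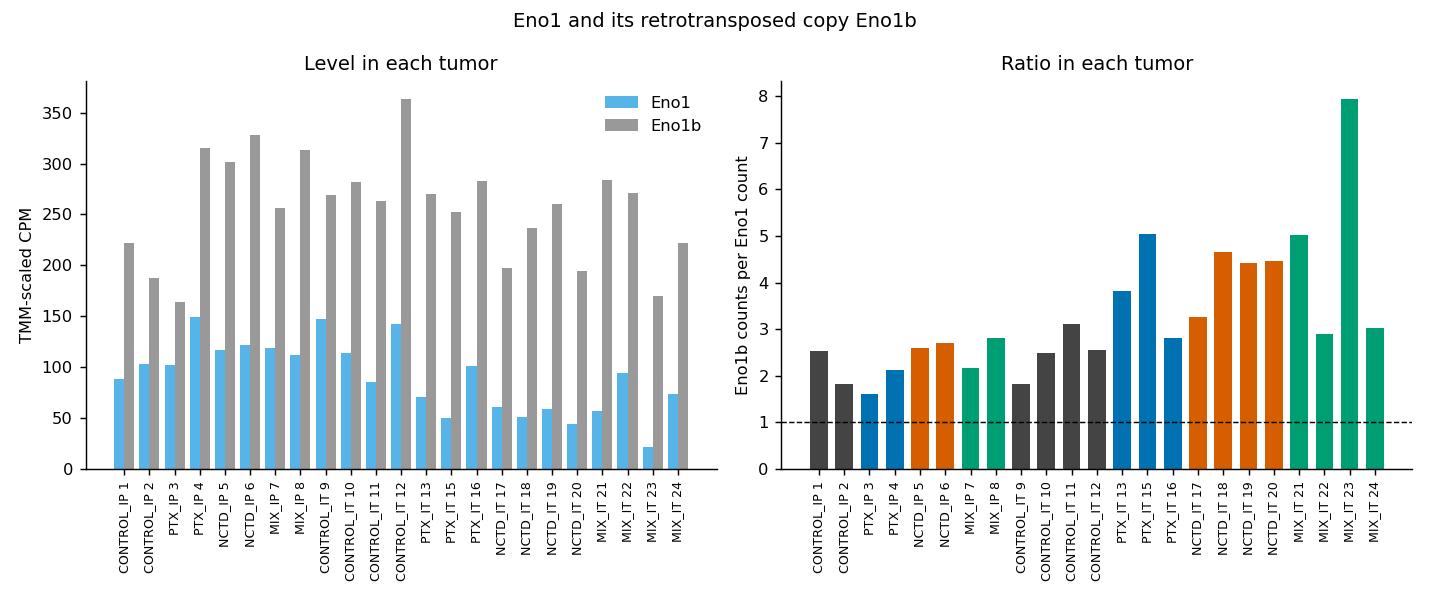
Level of Eno1 and Eno1b in each tumor (left, TMM-scaled CPM on a linear axis from 0) and counts of Eno1b for each count of Eno1 (right, colored by drug as gray for control, blue for PTX, orange for NCTD and green for MIX). Eno1b received more counts than Eno1 in every tumor, and the ratio is highest, 7.93, in MIX_IT replicate 23.

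The 10 genes varied together from tumor to tumor. Pearson's r of log2 CPM over the 23 tumors was positive for all 45 pairs, from 0.29 for Aldoa with Ldha to 0.95 for Tpi1 with Eno1, with a median of 0.724. After the mean of each group was removed the median was 0.657 and all 45 stayed positive, and without MIX_IT replicate 23 the median was 0.563 and 44 were positive. Ldha was at 0.39 with Hk2 and 0.46 with Gapdh but at 0.88 with Pgk1, whereas Pkm reached 0.93 with Eno1 and 0.91 with both Pfkl and Tpi1. These values describe the tumors, which share libraries and scaling, and carry no test.

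Each tumor was also given the mean z-score of the 10 genes, called the glycolysis score here. It ran from 0.53 to 1.05 in CONTROL_IT, from -0.90 to -0.49 in NCTD_IT, from -0.71 to 0.62 in PTX_IT, and was -0.52, 0.14, -2.83 and -0.10 in MIX_IT. In the IP groups it was 0.08 and 0.03 in CONTROL_IP, 0.10 and 0.81 in PTX_IP, 0.77 and 0.41 in NCTD_IP, and 0.85 and 0.58 in MIX_IP. All NCTD_IT tumors were below every IP tumor and every CONTROL_IT tumor on this scale.

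Of 13385 other genes, the 10 whose log2 CPM was most like the score were Ndufv3 (r = 0.94), Gm5559 (0.94), Myl12a (0.94), Prelid2 (0.93), Fam162a (0.93), Pdap1 (0.92), Fam50a (0.92), Higd1a (0.92), Grhpr (0.92) and Wdfy1 (0.92), each over 23 tumors. Ndufv3 encodes a subunit of respiratory complex I, and Grhpr is glyoxylate and hydroxypyruvate reductase. With group means removed their r stayed between 0.86 and 0.94.

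Lists of related genes were set beside the 10. Without MIX_IT replicate 23, 603 of the 12311 genes tested in MIX_IT were higher at an unadjusted p below 0.05 and 422 were lower. Over all genes, the share that was higher at an unadjusted p below 0.05 was 11.6% in NCTD_IT, 4.18% in PTX_IT and 7.88% in MIX_IT, the share that was lower was 2.30% in PTX_IP and 1.55% in MIX_IP, and the shares for the other directions used here are given above. Of 24 other glycolytic isozymes and steps, 14 passed the filter in the IT tumors, and in NCTD_IT 6 of them were lower at an unadjusted p below 0.05 and none was higher, with a median of -0.34. The 4 with the smallest p were Gpi1 (-0.68, SE 0.17), the phosphoglucose isomerase that follows hexokinase, Ldhb (-1.02, SE 0.26), Aldoc (-1.04, SE 0.38) and Pgam1 (-0.39, SE 0.16), the phosphoglycerate mutase between Pgk1 and Eno1. In MIX_IT, 2 of 14 were lower, Gpi1 (-0.43, SE 0.17) and Aldoc (-0.87, SE 0.37), as were 2 without replicate 23, with 1 higher. In PTX_IT none of the 14 was below that p in either direction. In the IP comparisons 1 of 15 was higher in NCTD_IP (Eno3, 0.60, SE 0.25), 1 was lower in PTX_IP (Pfkp, -0.45, SE 0.18) and none in MIX_IP.

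Genes of lactate and pyruvate handling and flux control did not move as a block. Of the 13 tested in NCTD_IT, 3 were higher at an unadjusted p below 0.05, namely the lactate transporter Slc16a1 (1.00, SE 0.38) and the bifunctional kinase-phosphatases Pfkfb3 (0.75, SE 0.26) and Pfkfb2 (0.88, SE 0.41), and 1 was lower, the pyruvate dehydrogenase kinase Pdk3 (-0.54, SE 0.23). In MIX_IT the lactate exporter Slc16a3 was lower (-1.60, SE 0.42, unadjusted p = 0.00144, adjusted p = 0.160 by edgeR), as was Pdk3 (-0.52, SE 0.23), while Slc16a1 (0.96, SE 0.38) and Pfkfb2 (0.91, SE 0.41) were higher. Without replicate 23, Slc16a3 was at -1.38 (SE 0.43, unadjusted p = 0.00533 by edgeR) and was the 1 gene of this list below that threshold. In PTX_IT and the 3 IP comparisons 0 of the genes of this list had an unadjusted p below 0.05 with edgeR.

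Of 14 HIF-1 targets with no step in glycolysis, 4 were lower in MIX_IT at an unadjusted p below 0.05: Egln1 (-0.81, SE 0.30), a prolyl hydroxylase that marks HIF for degradation, the carbonic anhydrase Car9 (-1.25, SE 0.48), Ankrd37 (-1.67, SE 0.67) and Ndrg1 (-0.79, SE 0.33). All 14 estimates were below 0, with a median of -0.80, and without replicate 23 the median was -0.59 and 3 (Car9, Ankrd37, Egln1) were below that p. In NCTD_IT 4 of 14 were below it, with 10 estimates below 0 and a median of -0.37: Egln1 (-0.97, SE 0.30), Ddit4 (-1.15, SE 0.37), Car9 (-1.12, SE 0.48) and Adm (-1.33, SE 0.61). In PTX_IT 0 of 14 were below that p with edgeR, with 12 estimates below 0 and a median of -0.16. In IP tumors 1 was higher in PTX_IP (Adm, 1.01, SE 0.31) and 1 in MIX_IP (Vegfa, 0.81, SE 0.34). Over the 23 tumors Higd1a (r = 0.92), Car9 (0.92) and Adm (0.87) followed the glycolysis score, whereas Kdm3a did not (-0.03).

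Of 8 tested regulators, 4 were higher at an unadjusted p below 0.05 in NCTD_IT and 4 in MIX_IT, and in PTX_IT 2 were higher and 1 lower. By the IP route 1 was higher in NCTD_IP, 0 passed in PTX_IP, and 1 was higher and 1 lower in MIX_IP. The values of 1 of those in NCTD_IT and of the higher ones by the IP route are not given. Txnip, which restrains glucose uptake, was higher in NCTD_IT (1.43, SE 0.41), PTX_IT (1.13, SE 0.43) and MIX_IT (1.08, SE 0.41) and lower in MIX_IP (-1.15, SE 0.40), each at an unadjusted p below 0.05. Epas1, a HIF alpha subunit that is strongly expressed in endothelium, was higher in NCTD_IT (0.92, SE 0.33), PTX_IT (0.86, SE 0.35) and MIX_IT (1.25, SE 0.33). Its r with the glycolysis score was -0.91. Hif1a was higher in MIX_IT (0.38, SE 0.17) and its r with the score was -0.05. Arrdc4, a relative of Txnip, was higher in NCTD_IT (1.64, SE 0.64) and MIX_IT (1.58, SE 0.64), while in MIX_IT without replicate 23 Arrdc4 was at 1.03 (SE 0.63) and 3 of the 8 regulators (Epas1, Hif1a, Txnip) were higher at that p. Trp53 was lower in PTX_IT (-0.996, SE 0.36). Txnip was the 1 gene of the 4 lists with an adjusted p below 0.05 in any comparison, in IT against IP tumors (1.13, SE 0.26, adjusted p = 0.0470 by edgeR).

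**Figure D4:**
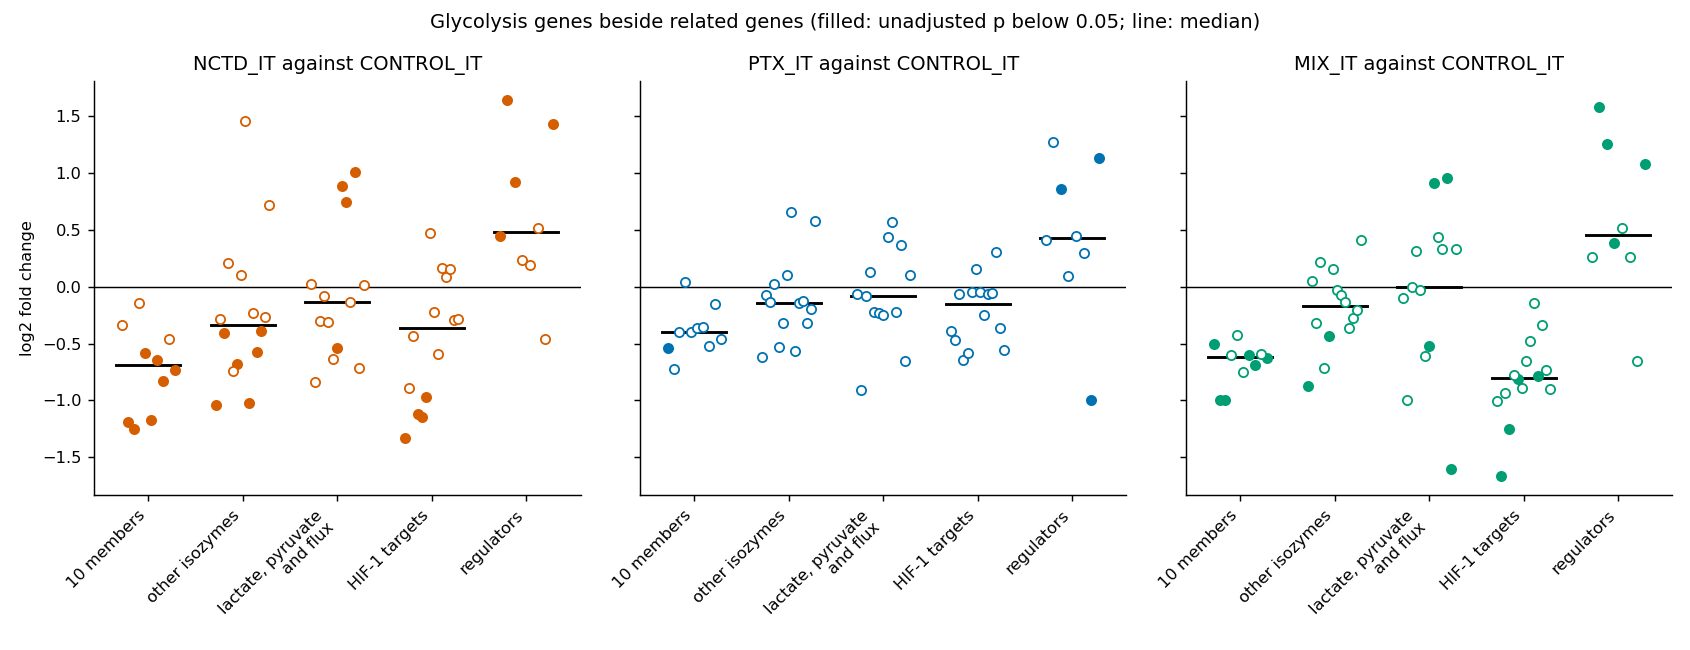
Log2 fold change (y axis, linear) in NCTD_IT, PTX_IT and MIX_IT against CONTROL_IT for the 10 glycolysis genes and 4 lists of related genes (x axis). Each point is a gene, filled where the unadjusted edgeR p is below 0.05, and lines are list medians, which for the 10 genes are -0.69, -0.40 and -0.62. The medians of the regulators lie above 0 in all 3 panels (0.48, 0.43 and 0.45).

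Markers of other cell types and signs of RNA composition moved with the score in the IT tumors. The endothelial markers Pecam1, Cdh5 and Kdr summed to 24.2 to 51.5 CPM in CONTROL_IT, 44.2 to 69.0 in PTX_IT, 55.3 to 114 in NCTD_IT and 47.0 to 182 in MIX_IT. Fibroblast markers summed to 66.7 to 224 CPM in CONTROL_IT, 171 to 455 in PTX_IT, 233 to 1043 in NCTD_IT and 297 to 4846 in MIX_IT. The NCTD_IT tumors were thus above every CONTROL_IT tumor for both lists. The same held for the neutrophil markers S100a8, S100a9 and Csf3r, which summed to 2.26 to 8.76 CPM in CONTROL_IT, 17.3 to 1075 in NCTD_IT and 13.3 to 18.9 in MIX_IT, and all 3 markers of each of these lists were detected. Melanoma markers summed to 25596 to 31200 CPM in CONTROL_IT and 18929 to 26709 in NCTD_IT, which overlapped. Macrophage markers (28.6 to 202 CPM in CONTROL_IT and 109 to 366 in NCTD_IT) and T cell markers (0 to 21.3 and 4.84 to 79.7) overlapped too. The share of all genes with every NCTD_IT tumor above every CONTROL_IT tumor was not counted.

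Pearson's r of the score with the log2 marker sum was -0.88 for endothelium (-0.61 in the 8 IP and -0.88 in the 15 IT tumors), -0.78 for fibroblasts (-0.51 and -0.86) and 0.67 for melanoma (-0.74 and 0.74, opposite signs by route). For Malat1, a nuclear RNA, it was -0.81 (-0.36 and -0.81), and Malat1 read 77.5, 88.5, 76.3 and 96.5 CPM in CONTROL_IT against 402, 693, 279 and 536 in NCTD_IT. For the share of counts from mitochondrial genes r was -0.72, for that from Rn18s-rs5 -0.64 and for the total count 0.02. The part of these in the lower glycolysis genes of NCTD_IT and MIX_IT was not tested. In the IP comparisons the endothelial sums of the treated groups (28.7 to 50.8 CPM) overlapped those of CONTROL_IP (34.9 and 47.4), beside the higher Gapdh. Without MIX_IT replicate 23, r over the 14 other IT tumors was -0.81 for endothelium, -0.74 for fibroblasts, 0.48 for melanoma and -0.91 for Malat1. Over the 15 IT tumors r was -0.75 for keratinocyte, 0.54 for erythroid, -0.48 for neutrophil, -0.33 for macrophage, -0.12 for skeletal muscle and -0.056 for T cell markers. Without replicate 23 these were -0.61, 0.75, -0.70, -0.66, -0.56 and -0.61. The adipocyte markers summed to no more than 2.96 CPM in any tumor. The keratinocyte markers, near the floor in most IT tumors, summed to no more than 0.88 CPM in CONTROL_IT and 10.7 CPM in MIX_IT.

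**Figure D5:**
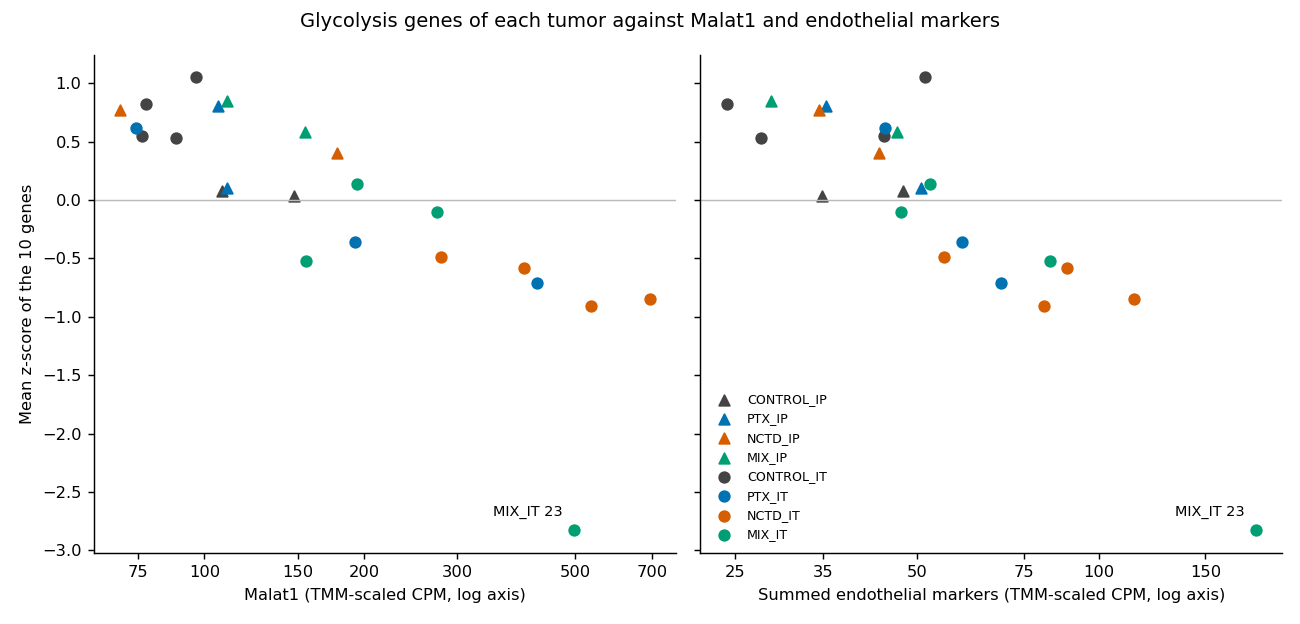
Mean z-score of the 10 glycolysis genes (y axis) of each tumor against Malat1 (left) and the sum of Pecam1, Cdh5 and Kdr (right), both as TMM-scaled CPM on log axes, with triangles for IP and circles for IT tumors. Tumors with more Malat1 or endothelial RNA have lower scores (r = -0.81 and -0.88), and MIX_IT replicate 23 lies at -2.83.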

How the data were processed

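Sequencing counts per gene of 23 tumors were deposited by the authors as raw values. Per the labels, libraries were made with a Collibri 3′ mRNA kit, and the submitters' processing notes name FastQC, Trimmomatic, STAR 2.7.11b and GRCm39. Strand, multi-mapped reads and molecular identifiers in the counting are not given in the sources used here. Of 56748 genes, 27684 had no counts. Groups followed the labels. Genes were filtered with filterByExpr (minimum count 10, total 15), normalized by TMM and tested with edgeR 4.0.16 (quasi-likelihood, two-sided, Benjamini-Hochberg adjusted) in R 4.3.3 with limma 3.58.1, on 12424 genes in IP, 12480 in IT and 13395 in all tumors. DESeq2 1.42.0 was an alternative, beside others given in the closing section. For each drug group against its control it was fitted to the tumors of those 2 groups alone. It was fitted to the 8 IP tumors for the averaged IP effects, and to all 23 tumors for the other comparisons. The script was tested on simulated data. Log2 CPM used a prior count of 2. A floor of 3 counts (0.448 to 1.05 CPM) covers counting error only.

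The 10 genes and the lists of related genes were chosen with earlier results of these data known. All 10 are named, and those with an unadjusted p below 0.05 or an estimate of 0.5 or more in size were followed through the alternatives. Up to 4 genes per related list with the smallest p, and the 10 genes most like the score, are named. Kdm3a, and Higd1a, Car9 and Adm where their likeness to the score is given, were chosen after their values were seen, as was the repeat of the related lists and of the count of groups without overlap without MIX_IT replicate 23. The labels do not say that each tumor came from a separate mouse, so p-values measure only the spread between these tumors.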

Additional observations from a re-analysis of the deposited data

Results flagged for a closer look

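In 30 sets of 4 tumors (10 genes in CONTROL_IT, NCTD_IT and MIX_IT) the gap of the highest or lowest tumor to its nearest neighbor was compared with Dixon's 95% critical value, and 4 exceeded it where chance gives about 1.5. Pfkl was at 21.7 CPM in NCTD_IT replicate 18 against 42.1 to 45.7 in the other tumors of the group. In MIX_IT replicate 23, Pfkl was at 7.28 CPM against 60.8 to 71.8, Aldoa at 993 against 1661 to 1765, and Pgk1 at 516 against 862 to 904. The fibroblast markers of that tumor summed to 4846 CPM and its endothelial markers to 182 CPM, the highest of the 23 tumors for both, and their part in these values was not tested.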

How the results depend on the processing

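No gene followed through the alternatives reversed in the comparison it was followed in, but other members changed sign: over the tumors left out, the number of genes above 0 ran from 7 to 10 in NCTD_IP (8 with all tumors), 6 to 10 in PTX_IP (8), 6 to 10 for NCTD (10) and 7 to 10 for PTX (9) averaged by the IP route, 0 to 1 in PTX_IT (1), 0 to 2 for PTX in IT minus IP (0) and 0 to 1 in IT against IP (0). With DESeq2 size factors in edgeR, and with the annotated copies summed, no count of calls moved by over 1.5 times. The count of glycolysis genes with an adjusted p below 0.05, which was 0 in every comparison, became 1 in NCTD_IP, 1 in MIX_IP, 5 in NCTD_IT, 2 in MIX_IT, 1 for the NCTD effect averaged over PTX by the IP route, 4 for NCTD and 2 for MIX in IT minus IP, and 1 in IT against IP without the filter on low counts. DESeq2 gave 1 in NCTD_IP, 1 in MIX_IP, 7 in NCTD_IT, 1 for NCTD in IT minus IP and 1 in IT against IP. The edgeR fit of 2 groups alone gave 5 in NCTD_IT. At an unadjusted p below 0.05, DESeq2 gave 4 in MIX_IP (2 in edgeR) and 5 in PTX_IT (1 in edgeR), the fit of 2 groups alone 5 in PTX_IT, no filter 4 in PTX_IT, 4 for PTX in IT minus IP (2 with it) and 9 for MIX (5 with it), and all 23 tumors in 1 model 0 for both averaged IP effects (2 each). Leaving out 1 tumor at a time gave counts at an unadjusted p below 0.05 of 1 to 3 in NCTD_IP, 1 to 2 in PTX_IP, 0 to 5 in PTX_IT, 4 to 8 in MIX_IT, 1 to 4 for NCTD and 1 to 3 for PTX averaged by the IP route, 3 to 7 for NCTD, 0 to 5 for PTX and 3 to 7 for MIX in IT minus IP, and 2 to 6 in IT against IP. The median ran from 0.075 to 0.33 in PTX_IP, -0.62 to -0.25 in PTX_IT, -0.82 to -0.41 in MIX_IT, 0.11 to 0.28 for NCTD and 0.051 to 0.17 for PTX averaged by the IP route, and in IT minus IP from -1.14 to -0.74 for NCTD, -0.81 to -0.51 for PTX and -1.17 to -0.73 for MIX. Over all genes the number lower at an unadjusted p below 0.05 moved too, as from 88 to 898 in PTX_IT and from 398 to 816 in MIX_IT. The cause was not tested. Over all genes, the 171 adjusted calls of NCTD_IT became 1380 with DESeq2, 1190 without the filter and 946 from the 2 groups alone, and were 0 without CONTROL_IT replicate 11 or 12 or NCTD_IT replicate 18, 1 without CONTROL_IT replicate 9 or NCTD_IT replicate 17, 71 without NCTD_IT replicate 19 and at most 191 otherwise. The 99 calls of IT against IP became 411 with DESeq2 and 453 without the filter, and 6 to 168 over the tumors left out, moving by over 1.5 times for every tumor except PTX_IT replicate 13, NCTD_IT replicate 20 and MIX_IT replicates 21, 23 and 24. The other comparisons had 0 calls in edgeR, 1 to 228 with DESeq2 and 51 to 364 without the filter. With 2 tumors in each IP group, leaving 1 out leaves a lone tumor assumed to vary like the other groups. No paired analysis was possible because no replicate number occurs in more than 1 tumor.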
